A study of Homo sapiens with 2 samples.

Results

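The genes described here are HHEX, NKX6-3, SIX2, CRH, LEPR, FAM20A and ST3GAL1, 7 genes of the delta lineage, the endocrine cells of the pancreas that secrete somatostatin. They were found by symbol among the 33694 genes of the deposited count files, and each symbol matched 1 entry. They were chosen by measured values of these same cells, since all 7 stand among the markers that the study listed for its delta population. Their high level in delta-like cells is therefore a description, with no test.

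The cells were eBCs (enhanced beta clusters), endocrine clusters made from human embryonic stem cells of the Mel1-INS-GFP line, in which GFP is expressed from the INS locus. The genotype was iSOX9KO in both libraries, a clonal line with TRE-driven Cas9, a CAG-driven rtTA and 3 U6-driven guide RNAs against SOX9 in the AAVS1 locus, so that doxycycline (DOX) induces the nuclease. One library was made without DOX, and the other with DOX at 2 ug/ml from day 12 of the differentiation. Live cells with high GFP were sorted and left to reaggregate, and live cells were sorted again before the 10X Genomics run. The classes below thus come from a sort on the INS reporter, but whether every cell had passed that gate was not tested.

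With 1 library per condition no difference between the libraries could be tested, so the 95% intervals below measure counting error alone. The library labelled no DOX held 30288 barcodes and 550240855 unique molecular identifiers (UMIs), and that labelled DOX 31817 barcodes and 520849221 UMIs. After removal of shallow barcodes and doublets, 21808 and 23118 cells were kept, with medians of 13957.5 and 12667 UMIs. The libraries shared 369 barcodes, 141 of them among the cells kept. A level is given as CPM, the UMIs of a gene per 1000000 UMIs of all genes in the same cells, with an exact Poisson interval. The targeted gene SOX9 had 946 UMIs (2.998 CPM) without and 1147 UMIs (3.78 CPM) with DOX by the labels, which gives a log2 ratio of 0.33 (0.21 to 0.46). In duct-like cells, which held most of its UMIs (631 and 862), SOX9 stood at 252 and 283 CPM. Its log2 ratio was -0.26 in delta-like, -0.48 in beta-like, -0.57 in alpha-like and 0.25 in beta cell progenitor-like cells, and each of these intervals held 0. The delta-like value rests on 46 and 26 UMIs, the beta-like on 40 and 34 and the alpha-like on 27 and 14. Over all cells SOX9 RNA was thus not lower in the library labelled DOX. The study assessed the knockout by a T7 endonuclease assay and by protein. RNA counts do not show whether the gene was cut or its protein lost. Whether the labels are exchanged was not tested, so libraries are called here what their labels say and no ratio between them is read as an effect of SOX9 loss.

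Delta cells hold a minority of the islet and restrain insulin and glucagon release through somatostatin. HHEX is a homeobox repressor needed for the delta fate in the mouse, and it also acts earlier in foregut, liver and duct development. The other 6 genes act at different places: NKX6-3 and SIX2 are homeobox transcription factors, CRH encodes the secreted corticotropin releasing hormone, LEPR the receptor of the adipocyte hormone leptin, FAM20A a pseudokinase that partners the secretory pathway kinase FAM20C, and ST3GAL1 a sialyltransferase of the Golgi that caps O-linked glycans.

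The RefSeq promoter table (GRCh38.p14) matched 3 of the 7 genes, HHEX, SIX2 and LEPR, with windows of 300 bases from 250 before to 50 after the transcription start, 5′ to 3′ on the gene's strand. They are shown because they stand next to genes with the narrowest (HHEX) and the broadest (LEPR) distribution over the classes. Capitals mark the CCAAT box, the homeodomain core TAAT, the TATA box (searched as TATAAA) and the cyclic AMP response element (searched as TGACGTCA), all on both strands.
HHEX, chr10:92689705-92690004, plus strand: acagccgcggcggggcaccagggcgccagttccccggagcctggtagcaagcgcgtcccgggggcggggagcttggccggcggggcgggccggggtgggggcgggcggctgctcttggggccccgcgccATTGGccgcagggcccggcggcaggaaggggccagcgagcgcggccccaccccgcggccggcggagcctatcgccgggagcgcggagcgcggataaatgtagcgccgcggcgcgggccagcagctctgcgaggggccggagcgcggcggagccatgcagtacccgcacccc
SIX2, chr2:45009403-45009702, minus strand: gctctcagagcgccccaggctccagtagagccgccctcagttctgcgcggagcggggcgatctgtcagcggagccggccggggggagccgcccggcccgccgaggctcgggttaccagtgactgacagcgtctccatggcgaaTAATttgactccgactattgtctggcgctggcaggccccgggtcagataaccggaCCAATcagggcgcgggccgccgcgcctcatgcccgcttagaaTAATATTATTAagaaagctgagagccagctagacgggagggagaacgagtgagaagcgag
LEPR, chr1:65420418-65420717, plus strand: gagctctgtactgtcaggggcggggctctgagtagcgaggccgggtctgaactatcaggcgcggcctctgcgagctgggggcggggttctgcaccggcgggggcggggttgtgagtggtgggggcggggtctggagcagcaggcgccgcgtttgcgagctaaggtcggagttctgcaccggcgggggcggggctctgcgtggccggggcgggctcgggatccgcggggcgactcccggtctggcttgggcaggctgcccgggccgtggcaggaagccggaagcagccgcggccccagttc
The windows were rich in G and C, at 80.3% for HHEX, 64% for SIX2 and 74% for LEPR, against a median of 58.7% over 35116 promoters of that length. GGGCGG, the GC box, was matched 4 times for HHEX, 2 times for SIX2 and 6 times for LEPR, and 45.0% of all promoters held it. CCAAT was matched 1 time for HHEX (121 bases before the start) and 1 time for SIX2 (52 bases before it), and 34.6% of all promoters held it. TAAT was matched 4 times for SIX2, with the last 3 matches in 1 run whose matches touch or overlap, and not for HHEX or LEPR. Of all promoters 50.2% held TAAT, 11.5% the TATA box and 1.85% the cyclic AMP response element, and the 3 windows held neither of the latter. Of the 2 LEPR windows in the table, that shown was picked because it is also the window of LEPROT.

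In GENCODE 44 on GRCh38 the genes lie apart from each other. HHEX (ENSG00000152804) spans chr10:92689955-92695647 on the plus strand. NKX6-3 (ENSG00000165066), CRH (ENSG00000147571) and ST3GAL1 (ENSG00000008513) share chromosome 8, on the minus strand at 41645177 to 41650817, 66176376 to 66178464 and 133454848 to 133571926. SIX2 (ENSG00000170577) spans chr2:45005182-45009452 on the minus strand, LEPR (ENSG00000116678) chr1:65420652-65641559 on the plus strand and FAM20A (ENSG00000108950) chr17:68535113-68601367 on the minus strand. LEPR overlaps LEPROT on the same strand, so the split of reads between them is uncertain.

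Clustering divided the 44926 cells into 7 groups, of which 6 were named from marker lists without the 7 genes. The delta-like cluster held 4579 cells, and all 12 of its 12 listed markers had a log2 ratio of at least 1 there over the other cells, with 1 CPM added to both sides. These markers came from the study's list for the same libraries and gave the cluster its name, so the count is no separate support for that name. Its 10 leading genes included SST, COL14A1 and SOX2 beside HHEX, CRH, FAM20A, NKX6-3 and ST3GAL1. SST made up 219170 CPM there against 5977 CPM over the other endocrine classes together (alpha-like, beta cell progenitor-like and beta-like). These delta-like cells were not free of INS, which stood at 135456 CPM, while GCG stood at 367 CPM. The summed level of 13 beta markers was 1780 CPM in delta-like and 4154 CPM in beta-like cells, and that of 12 alpha markers 1777 CPM in delta-like and 28306 CPM in alpha-like cells. The beta sum was higher still in duct-like cells, at 6918 CPM, so it is not particular to beta-like cells. Clustering without the 7 genes gave 4576 delta-like cells, with a median log2 ratio over the 7 genes of 4.23.

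All 7 genes were highest in the delta-like cells of both libraries. Their log2 ratio over the other endocrine classes together ran from 2.78 (LEPR) to 6.30 (HHEX), with a median of 4.24, and all 7 passed a ratio of 1, a threshold that 2.83% of the 10545 genes with at least 5 CPM on either side passed. The median over those genes was -0.26. This is the contrast on which the genes were chosen, so nothing is read from the count.

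Among the transcription factors, HHEX was the most restricted, with 87.6% of its 12680 UMIs in delta-like cells, a class that held 10.2% of the cells. Delta-like cells held it at 192 CPM (188 to 197) without DOX and at 176 CPM (171 to 181) with DOX, as labelled, and every pair of values below keeps that order. In beta-like cells it fell to 2.22 and 1.35 CPM and in beta cell progenitor-like cells to 2.04 and 1.38 CPM, pairs whose intervals overlapped within each library. The next named class after delta-like was the duct-like one, in which HHEX stood at 26.0 CPM (20.1 to 33.1) and 10.5 CPM (7.17 to 14.8). HHEX was thus 7.40-fold and 16.8-fold higher in delta-like than in duct-like cells. The duct-like values rest on 65 and 32 UMIs in 153 and 178 cells.

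In delta-like cells NKX6-3 stood at 82.7 CPM (79.8 to 85.8) and 90.4 CPM (86.6 to 94.2). Alpha-like cells came next, at 12.5 CPM (11.7 to 13.4) and 5.79 CPM (5.16 to 6.48). The delta-like share of its UMIs was 66.8%, and the alpha-like share 15.2%. In duct-like cells NKX6-3 had 2 UMIs in each library.

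SIX2 was counted on 1764 UMIs in all and was the sparsest of the 7. In delta-like cells it stood at 16.6 CPM (15.3 to 18.0) and 17.1 CPM (15.5 to 18.8). Its second class was not alpha-like but beta cell progenitor-like, at 5.03 CPM (4.502 to 5.603) and 3.76 CPM (3.27 to 4.30), which held 30.9% of its UMIs and whose interval overlapped that of proliferating progenitor-like cells in both libraries (4.82 and 1.96 CPM). In beta-like cells it was at 0.483 and 0.256 CPM and in alpha-like cells at 0.437 and 0.283 CPM, levels whose intervals overlapped each other.

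In delta-like cells CRH, the secreted hormone, stood at 479 CPM (471 to 486) and 531 CPM (522 to 540), with 74.5% of its UMIs there. Alpha-like cells held it at 59.1 and 54.1 CPM and proliferating progenitor-like cells at 59.2 and 47.2 CPM, and the intervals of these classes overlapped in both libraries. Beta-like, progenitor-like and duct-like cells held it at 4.08 to 7.33 CPM.

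LEPR was the least restricted. In delta-like cells it stood at 236 CPM (231 to 241) and 229 CPM (223 to 235). Alpha-like cells held it at 125 CPM (123 to 128) and 133 CPM (130 to 136), so that the delta-like level was 1.88-fold and 1.72-fold higher. Since alpha-like cells were more numerous, they held 46.6% of its UMIs and delta-like cells 41.5%. Proliferating progenitor-like cells held LEPR at 92.1 and 97.2 CPM, while beta-like cells held it at 7.29 and 4.72 CPM. LEPR thus marked delta-like and alpha-like cells against beta-like ones.

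In delta-like cells FAM20A stood at 109 CPM (105 to 112) and 122 CPM (118 to 127), with 76.0% of its UMIs there. No other named class passed 7.34 CPM in either library. In delta-like cells ST3GAL1 stood at 128 CPM (125 to 132) and 130 CPM (125 to 135). Its second class was beta cell progenitor-like, as for SIX2, at 22.8 CPM (21.7 to 24.0) and 20.6 CPM (19.4 to 21.8), above alpha-like cells at 15.7 and 10.8 CPM.

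**Figure D1:**
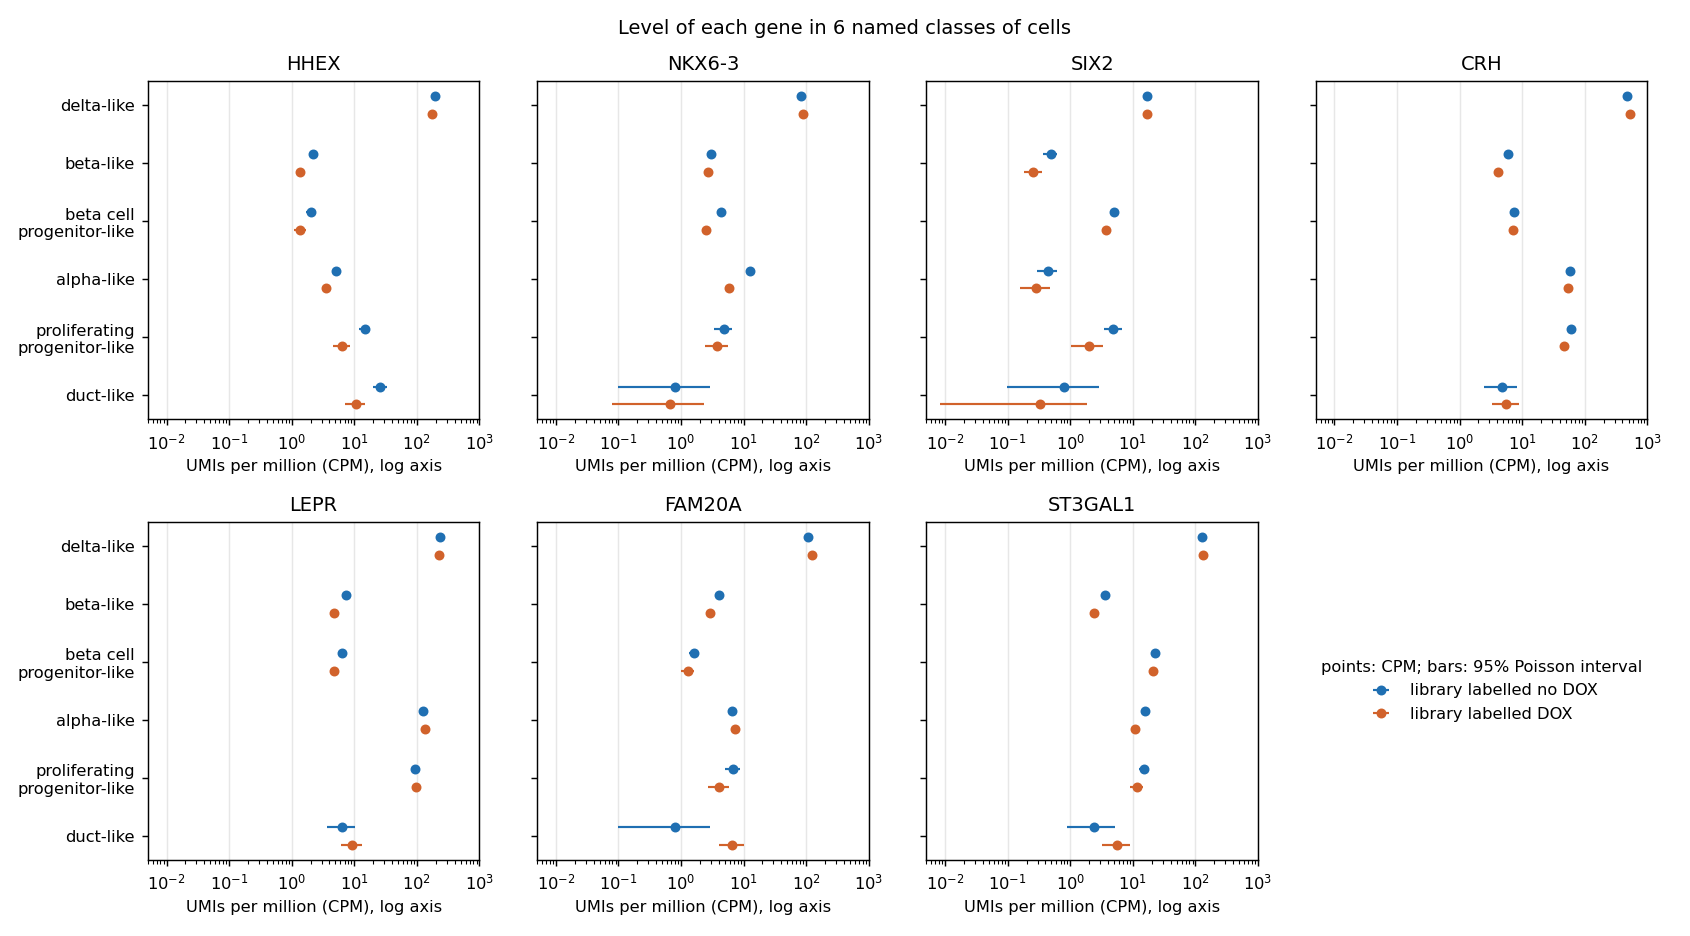
Level of each of the 7 genes in CPM (log axis) by class of cells; points are the libraries labelled no DOX (blue) and DOX (orange) and bars exact Poisson 95% intervals. Every gene has its highest points in delta-like cells, and the second class is duct-like for HHEX, alpha-like for NKX6-3 and LEPR, and beta cell progenitor-like for SIX2 and ST3GAL1.

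Free RNA in droplets can give UMIs of an abundant transcript in cells that do not express it. SST was taken as a reference, since after each cell of at least 5000 UMIs was thinned to 5000, 98.6% or more of the cells of every class had an SST UMI. SST in duct-like cells, which should lack it, stood at 0.835% of its delta-like level, in beta cell progenitor-like cells at 1.11%, in beta-like cells at 1.89%, in alpha-like cells at 6.34% and in proliferating progenitor-like cells at 8.03%. SST thus differed between the classes, and free RNA and SST made by the cells themselves cannot be told apart there. HHEX lay under SST of the same class in alpha-like (2.37%), beta cell progenitor-like (0.934%), beta-like (0.943%) and proliferating progenitor-like cells (5.82%), although with both libraries summed all 4 values lay above the 0.835% of SST in duct-like cells. That SST value was 0.438% without and 1.17% with DOX by the labels, and in the library labelled DOX HHEX in beta-like (0.770%) and beta cell progenitor-like cells (0.785%) lay under it. In duct-like cells HHEX lay at 9.41% (13.5% without and 5.96% with DOX by the labels), far above SST. SIX2 in beta cell progenitor-like cells (26.4%), ST3GAL1 in the same cells (16.9%) and LEPR in alpha-like (55.2%) and proliferating progenitor-like cells (40.5%) also lay far above SST. In alpha-like cells CRH (12.4% and 10.2%) and ST3GAL1 (12.3% and 8.29%) lay above SST (5.99% and 6.81%) in both libraries, and FAM20A lay near it (6.06% and 5.99%). NKX6-3 lay above SST there in the library labelled no DOX (15.1%) and near it in that labelled DOX (6.41%). In beta-like cells no gene passed 3.30% with both libraries summed, but NKX6-3 (3.30%), FAM20A (3.002%), LEPR (2.53%), ST3GAL1 (2.28%) and SIX2 (2.14%) lay above SST at 1.89%, ST3GAL1 and SIX2 in the library labelled no DOX alone.

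**Figure D2:**
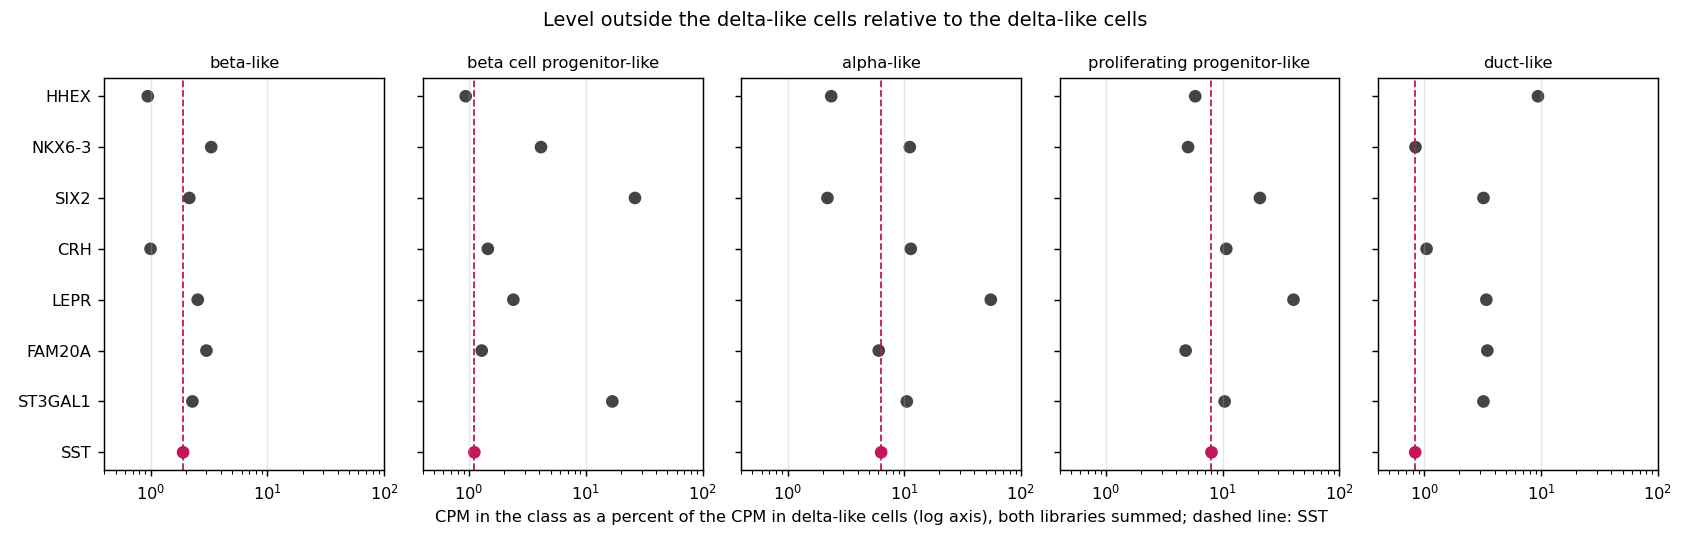
CPM of each gene outside the delta-like cells as a percent of its CPM in delta-like cells (log axis), both libraries summed, with SST as dashed line. Among the named classes HHEX lies above SST in duct-like cells only (9.41% against 0.835%), and LEPR lies above it in alpha-like cells (55.2% against 6.34%), and SIX2 in beta cell progenitor-like cells (26.4% against 1.11%).

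Per cell the genes were sparse. In delta-like cells thinned to 5000 UMIs (2442 and 1825 cells, with 199 and 113 shallower ones left out), HHEX had a UMI in 57.0% and 54.1%, CRH in 61.3% and 63.5%, LEPR in 59.5% and 58.5%, and ST3GAL1 in 42.5% and 43.7%. FAM20A was seen in 33.6% and 39.2%, NKX6-3 in 27.4% and 28.3%, and SIX2 in 7.49% and 8.93%. Without thinning, HHEX was seen in 77.4% and 75.3% of delta-like cells, at medians of 13376 and 12014 UMIs. For comparison, beta-like cells, with medians of 17984.5 and 14747 UMIs, had a HHEX UMI in 0.852% and 0.427% of thinned cells, and a NKX6-3 UMI in 1.21% and 1.29%. In duct-like cells HHEX was seen in 7.48% and 4.52%, whereas LEPR was seen in 33.3% and 36.1% of alpha-like cells.

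A delta-like cell thinned to 5000 UMIs had a UMI of a median of 3 of the 7 genes. The share with 3 or more was 60.7% (58.7 to 62.6, Clopper-Pearson) and 62.6% (60.4 to 64.9), so the libraries overlapped within counting error. It was 3.47% and 1.03% in proliferating progenitor-like cells, 1.24% and 0.915% in alpha-like cells, 0.434% and 0.0832% in beta-like cells and 0.318% and 0.137% in beta cell progenitor-like cells. None of 147 and 177 thinned duct-like cells reached 3, which allows a share of up to 2.48% and 2.06% (Clopper-Pearson). All 7 genes together were seen in 5 and 4 delta-like cells. CRH counts were uneven, with a median of 3 UMIs and a maximum of 88 and 93 UMIs in an unthinned delta-like cell, and the top 10% of cells held 45.6% and 41.2% of its UMIs. HHEX had a median of 2 UMIs and a maximum of 17 and 18, and the top 10% of cells held 29.9% and 30.2%.

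**Figure D3:**
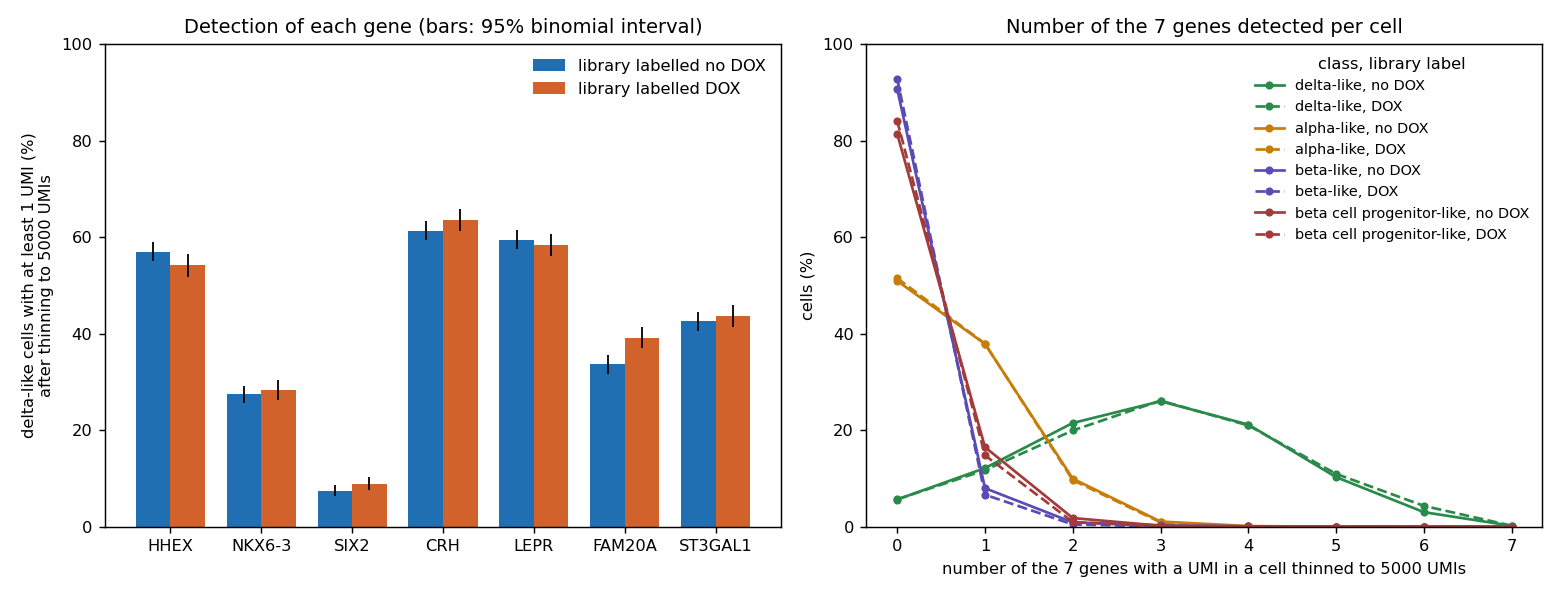
Left, percent of delta-like cells with at least 1 UMI of each gene after thinning to 5000 UMIs, by library, with 95% binomial intervals; right, percent of cells by the number of the 7 genes detected. The most frequent number is 3 in delta-like cells of both libraries and 0 in the other classes drawn.

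Over the 21 pairs of genes, the share of thinned delta-like cells with a UMI of both was compared with the product of the single shares. The ratio had a median of 1.08 and 1.1, and exceeded 1 in 16 and 19 pairs, so most pairs were seen together slightly more often than independent detection would give. The pair that stood out in both libraries was NKX6-3 and FAM20A, at 1.5 and 1.45. Of cells with a NKX6-3 UMI 50.3% and 56.9% had one of FAM20A, against 27.3% and 32.2% of cells without. HHEX and FAM20A were near independent, at 0.957 and 1.03. HHEX and ST3GAL1 stood at 1.16 and 1.15. Pairs with SIX2 ran from 0.758 to 1.26, on the fewest cells. These ratios are descriptions of sparse counts, and no test was made. Pairs of other genes were not counted, so a ratio above 1 is not read as particular to these genes.

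Grouping cells by the SST share of their UMIs used neither the clusters nor the 7 genes. It is still no independent view, since the 7 genes were chosen as markers of the delta population, which is rich in SST. In cells with an SST share under 1%, HHEX stood at 1.95 CPM (1.78 to 2.12) and 1.31 CPM (1.18 to 1.46). It rose to 17.0 and 7.92 CPM at 1 to 5%, to 122 and 101.2 CPM at 5 to 20%, and to 204 CPM (197.9 to 209) and 185 CPM (178 to 191) at 20% and over. The group at 20% and over held 1641 and 1233 cells, of which 95.1% and 94.2% were delta-like. The median log2 ratio over the 7 genes between the highest and the lowest group was 4.10, and all 7 were highest in the highest group of both libraries. This repeats the contrast on which the genes were chosen, so nothing is read from the count, and the share over all genes was not taken. In the 153 cells of other clusters with an SST share of 20% or more, HHEX stood at 37.1 CPM, NKX6-3 at 7.85 CPM and FAM20A at 14.8 CPM, all below delta-like cells with that SST share (206, 82.1 and 111 CPM), while LEPR stood at 203 CPM against 259.6 CPM. The 7 genes had themselves entered the clustering that placed these cells, but clustering without them, chosen after seeing the data, gave HHEX at 37.02 CPM, NKX6-3 at 8.61 CPM, FAM20A at 15.1 CPM and LEPR at 206 CPM in such cells. Conversely, 160 delta-like cells had an SST share under 1%. These held NKX6-3 at 69.3 CPM and FAM20A at 71.5 CPM but HHEX at 25.1 CPM and CRH at 71.5 CPM.

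Within delta-like cells, 6 of the 7 genes were lower at an INS share of 15% and over than under 5% in both libraries, to different degrees, as were 55.1% of the 10623 genes with at least 5 CPM in any of these groups. NKX6-3 stood at 150 and 151 CPM where INS made up under 5% of UMIs (150 and 186 cells), at 95.9 and 93.4 CPM at 5 to 15%, and at 61.3 and 66.6 CPM at 15% and over. LEPR fell from 358 and 359 CPM to 177 and 147 CPM over the same groups, and CRH from 600 and 655 CPM to 349 and 388 CPM. HHEX fell from 229 and 217 CPM to 175 and 147 CPM. FAM20A went from 122 and 144 CPM to 96.2 and 114 CPM and ST3GAL1 from 176 and 162 CPM to 120 and 114 CPM. SIX2 had overlapping intervals in all 3 groups of the library labelled no DOX. A larger INS share leaves fewer UMIs to the other genes, so levels were also taken per 1000000 UMIs other than INS and SST, with both libraries summed. On that scale NKX6-3 fell from 215 to 100.2, LEPR from 512 to 267, CRH from 901 to 575, HHEX from 317 to 265, ST3GAL1 from 241 to 188 and FAM20A from 192 to 162, while SIX2 went from 19.96 to 25.6. The same 6 genes were lower in both libraries on that scale, as were 34.7% of all genes tested. The SST share also differed between these groups, from 267154 to 179463 CPM.

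**Figure D4:**
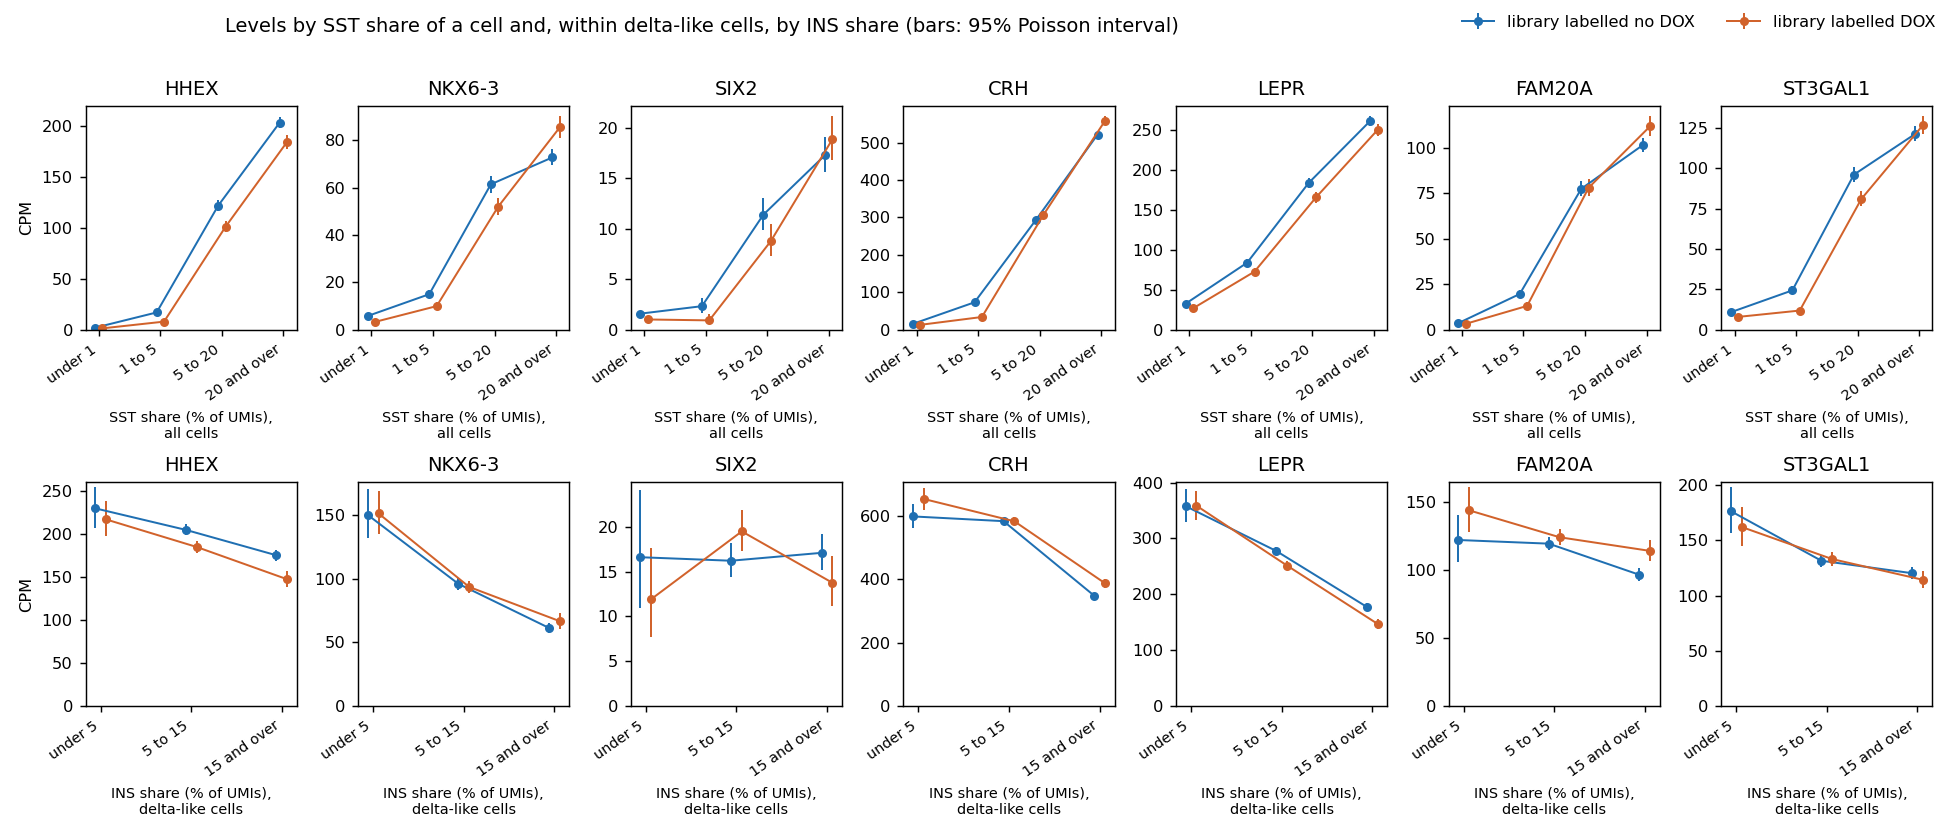
CPM of each gene by SST share of the UMIs of a cell (upper row, all cells) and by INS share (lower row, delta-like cells), by library, with 95% Poisson intervals. All 7 genes are highest at an SST share of 20% and over, and NKX6-3 falls from 150 to 61.3 CPM with the INS share in the library labelled no DOX, while SIX2 shows no such course.

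The comparison of the study's design is that between the libraries, which addresses what loss of SOX9 does to the composition and state of the endocrine cells. Over all cells, each of the 7 genes was lower in the library labelled DOX. So were 53.0% of the 10444 genes with at least 5 CPM in either library. HHEX went from 24.8 CPM (no DOX) to 16.0 CPM (DOX), a log2 ratio of -0.63 (-0.69 to -0.58). NKX6-3 went from 14.5 to 10.2 CPM (-0.50), SIX2 from 3.37 to 2.31 CPM (-0.55) and ST3GAL1 from 24.7 to 17.8 CPM (-0.47). LEPR (-0.37), CRH (-0.36) and FAM20A (-0.31) were lower by less. The median was -0.47, and SST itself lay at -0.44. Of the 6 genes with at least 5 CPM in either library, HHEX and NKX6-3 lay at -0.5 or less, which 0.622% of 10444 genes did, and the median over those genes was -0.01.

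The delta-like share of cells differed in the same direction, at 12.1% (11.7 to 12.6) of the cells labelled no DOX but 8.38% (8.03 to 8.75) of those labelled DOX. The alpha-like share was also lower there (23.6% and 18.3%), and the beta-like share higher (32.4% and 42.9%). These directions, like those of all ratios between the libraries, would turn if the labels were exchanged, which was not tested. Within delta-like cells the 7 genes were not lower as a group. Their median log2 ratio was 0.04, the same as over the 10009 genes tested there. None lay at -0.5 or less, as 0.5% of those genes did, and none at 0.5 or more, as 0.43% did. FAM20A (0.17, 0.10 to 0.24), CRH (0.15, 0.12 to 0.18) and NKX6-3 (0.13, 0.05 to 0.21) were higher in the library labelled DOX by more than counting error. HHEX was lower, at -0.13 (-0.18 to -0.07), and the intervals of SIX2, LEPR and ST3GAL1 held 0. Per UMI other than INS and SST, an alternative chosen after seeing the data, the interval of NKX6-3 also held 0 (0.08, -0.01 to 0.16) and that of LEPR no longer did (-0.09, -0.14 to -0.04). With every named class given the same weight, the median over all cells moved from -0.47 to -0.03. The ratios of HHEX (-0.28), SIX2 (-0.25), ST3GAL1 (-0.06) and NKX6-3 (-0.03) stayed below 0, and those of CRH (0.08), LEPR (0.01) and FAM20A (0.17) were above it.

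HHEX was lower in the library labelled DOX in each of the 6 named classes, with a log2 ratio from -1.31 (duct-like) to -0.13 (delta-like). The share of all genes lower in every named class was not counted. NKX6-3 in alpha-like cells was at -1.11 (-1.30 to -0.92), where SST was at 0.16, so these did not move together in that class. In beta-like cells 6 of the 7 genes lay at -0.5 or less with an interval below 0, at -0.51 to -0.92, as did 2.89% of the 18293 genes with at least 20 UMIs there, and NKX6-3 at -0.19 (-0.39 to 0.01), with SST at -0.11. Whether an interval lies below 0 depends on the UMIs of a gene, and those genes were not matched for depth. At a finer clustering, the cluster named beta-like held 3748 cells without and 6327 with DOX by the labels. The intervals of both libraries overlapped there for all 7 genes (CRH 3.80 and 3.66 CPM, LEPR 4.97 and 4.10 CPM, HHEX 1.46 and 1.21 CPM). Overlap of separate intervals is a looser measure than a ratio interval, which was not taken at this clustering. Whether the lower values held in that cluster is therefore not settled. In an unnamed cluster of 5603 cells, whose highest-scoring marker list was that of beta-like cells, intervals were apart for every gene but NKX6-3. There CRH stood at 8.38 and 4.15 CPM, LEPR at 10.3 and 5.04 CPM and HHEX at 3.35 and 1.52 CPM. A second unnamed cluster with that highest-scoring list held 1042 cells. Its intervals overlapped for CRH (9.31 and 7.22 CPM), LEPR (9.87 and 8.87 CPM) and HHEX (2.47 and 2.47 CPM), but not for ST3GAL1 (5.85 and 2.92 CPM). The intervals of HHEX overlapped in both beta cell progenitor-like clusters as well. Among the groups of the first clustering, the unnamed cluster, of shallow cells rich in mitochondrial UMIs, held HHEX at 7.28 and 15.9 CPM, a log2 ratio of 1.13 (0.35 to 1.96).

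**Figure D5:**
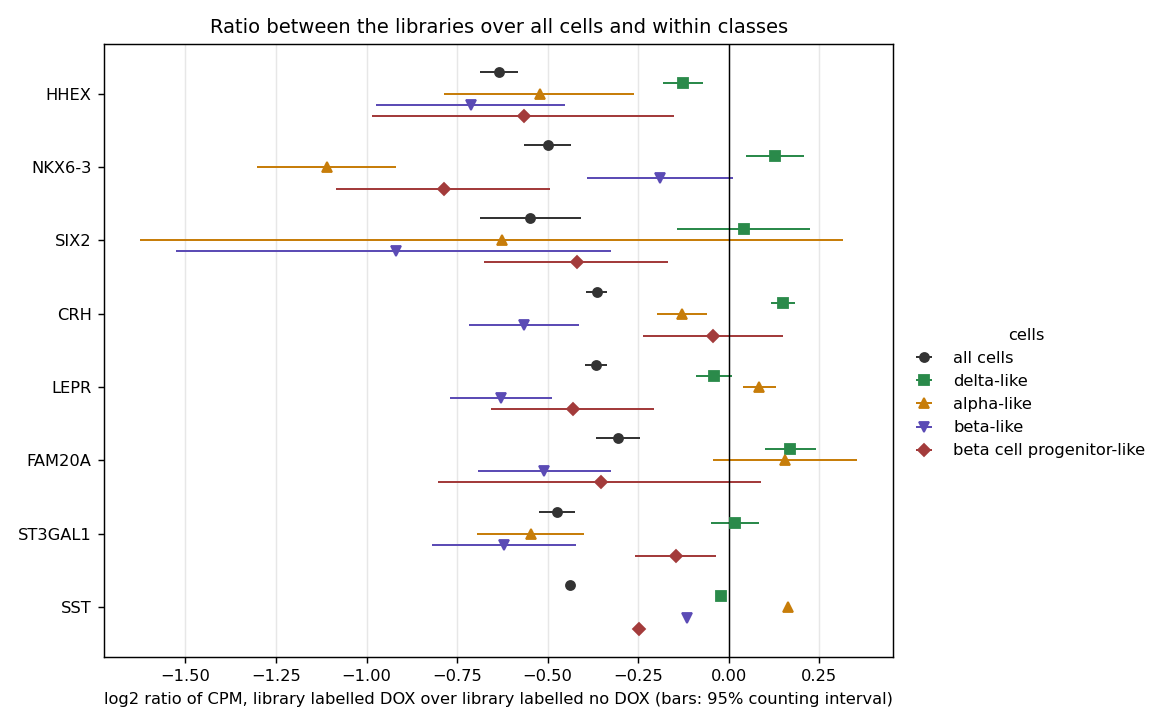
Log2 ratio of CPM between the libraries, DOX over no DOX by their labels, for each gene and SST, over all cells and within 4 classes, with 95% counting intervals. Over all cells every gene lies below 0, from -0.63 (HHEX) to -0.31 (FAM20A), while within delta-like cells all 7 lie between -0.13 and 0.17.

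Other genes of the same pathways were described from lists chosen with earlier results of these data known. Of 20 genes of islet delta cells, 13 reached 5 CPM, and 5 of them were at least 2-fold higher in delta-like than in other endocrine cells, against 2.83% of all genes tested. Among these were SST, the calcium-sensing receptor gene CASR (37.2 against 10.2 CPM) and SEC11C (1219 against 530.1 CPM). SST was a naming marker of the delta-like class, so its place in this count was fixed in advance. Alpha-like cells alone held CASR at 38.2 CPM and SEC11C at 1227 CPM, so neither was higher in delta-like than in alpha-like cells. PCSK1, a prohormone convertase, and AKAP12 were at least 2-fold lower, a threshold that 8.41% of all genes tested passed, although PCSK1 was lower still in alpha-like cells (20.7 against 90.2 CPM) and AKAP12 in beta cell progenitor-like cells (8.14 against 26.9 CPM). GHSR, the ghrelin receptor gene known from islet delta cells, had no UMI in these classes.

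The partners of the hormone and receptor genes did not follow them. The CRH receptor genes CRHR1 and CRHR2 lay at 0.451 and 0.0502 CPM in delta-like cells, under the level tested. The CRH relatives UCN and UCN3 were lower there than in the other endocrine classes summed (4.16 against 22.4 CPM, and 0.886 against 8.29 CPM). Alpha-like cells held them at 63.1 and 33.3 CPM, whereas UCN in beta cell progenitor-like cells (2.87 CPM) and UCN3 in beta-like cells (0.768 CPM) were not above their delta-like levels. Of 15 genes of the leptin receptor pathway 10 were tested, none was 2-fold higher in delta-like cells and SOCS1 was 2-fold lower (2.04 against 6.16 CPM), though at 0.725 CPM in beta cell progenitor-like cells. STAT3, the main transducer of LEPR, stood at 39.0 against 37.8 CPM, and LEP itself had no UMI in delta-like cells. LEPROT, which overlaps LEPR, stood at 95.4 against 71.7 CPM, a log2 ratio of 0.41 where LEPR had 2.78.

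Among the relatives of the transcription factors, NKX6-1, a beta cell factor, was at 28.5 CPM in delta-like and 97.5 CPM in other endocrine cells, with alpha-like cells at 10.1 CPM. Within delta-like cells NKX6-1 (0.57) and UCN (0.92) were higher in the library labelled DOX on the log2 scale. Of the 4 genes tested among the relatives and cofactors of SIX2, SIX5 was higher (5.35 against 2.39 CPM) and DACH2 lower (7.01 against 22.6 CPM). TLE1, one of the Groucho corepressors that HHEX binds, was higher (29.7 against 12.7 CPM) and TLE3 lower (10.1 against 32.5 CPM, though only 6.74 CPM in alpha-like cells), with TLE2, TLE4 and AES in between. FAM20C, the kinase that FAM20A activates, was at 11.1 against 22.1 CPM. Of 16 sialyltransferase and core O-glycan genes tested, ST8SIA5 (6.44 against 0.427 CPM) and ST3GAL6 (25.4 against 9.34 CPM) were higher and none was 2-fold lower. Of the 13 stomach genes, listed because NKX6-3 also acts in the gastric antrum, SOX2 was higher (28.2 against 1.90 CPM), while GKN1 and BARX1 had no UMI in these classes. GAST was lower than in the other endocrine classes summed (830.0 against 6329 CPM), which rests on alpha-like cells at 25595 CPM, since beta-like (586 CPM) and beta cell progenitor-like cells (749.7 CPM) lay under the delta-like level. SOX2 was also a naming marker of the class.

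Immediate early genes, which are induced within minutes of cell stimulation, were also described. Of the 9 listed all were tested and 8 were at least 2-fold higher in delta-like cells than in the other endocrine classes summed, a threshold that 2.83% of all genes tested passed. Among them were EGR1 (294 against 81.4 CPM), NPAS4 (25.0 against 3.13 CPM) and FOS (433 against 129 CPM). Alpha-like cells alone held EGR1 at 153 CPM, NPAS4 at 6.195 CPM and FOS at 227 CPM, and held JUNB at 139 CPM, above its delta-like 110.3 CPM. The median log2 ratio of the 9 was 2.07. Within delta-like cells EGR2 (-0.84) and EGR3 (-0.69) were lower in the library labelled DOX. Markers of mesenchyme, endothelium and acinar cells stood at 0 to 2.04 CPM in delta-like cells.

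The genes whose level over the 6 classes of both libraries was most like that of each member (Pearson correlation of log2(CPM + 1) over 12 points, among 12803 genes) are given as a description. The points share libraries and depth, and the classes were made from the same cells. HHEX was followed most closely by SFRP1 (0.98), CLDN10, FRMD3, PDIA4 and MASP1. CRH was most like PBX3 (0.99), ADGRG2, SST, EGR3 and FHOD3, and LEPR like SLCO4C1 (0.97), EGR3, PBX3, ETV1 and FHOD3. SIX2 was most like EPHB1 (0.97), AKAP17A, CNKSR3, ACVR2A and NETO1, and ST3GAL1 like AK5 (0.95), KCTD8, GPR6, CLDN5 and SLC44A5. NKX6-3 was most like THRA1/BTR (0.97), KCTD8, KCNMB2, HYOU1 and RP11-930P14.1, and FAM20A like CDH13 (0.96), RP11-930P14.1, TCERG1L, TRPM3 and COL14A1. SST, SFRP1, EPHB1 and KCTD8 were naming markers of the delta-like class. Among the 7 genes themselves the correlation ran from 0.45 (SIX2 and LEPR) to 0.94 (CRH and LEPR).

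Neighbours of the 7 genes were looked at in the same contrast. Of 14 protein-coding genes that start within 250 kb of a member, 9 were tested and 1 was at least 2-fold higher in delta-like cells, against 2.83% of all genes tested. This was EXOC6, an exocyst subunit gene whose start lies 136876 bases from that of HHEX, at 37.3 against 17.2 CPM. The median log2 ratio of the 9 was 0.44. Of the 5 below 5 CPM on both sides, TRIM55 next to CRH (0.385 against 0.0375 CPM) and GINS4 next to NKX6-3 (2.32 against 0.979 CPM) were also higher by more than counting error. DNAJC5B, likewise next to CRH, was lower by more than counting error (0.318 against 0.547 CPM). The share of all genes past counting error was not counted. SIX3, the neighbour and relative of SIX2, was at 0.0167 CPM in delta-like cells.

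At a finer clustering of 13 clusters, 4398 cells formed the main delta-like cluster, of which 99.7% came from the delta-like class, and each of the 7 genes had a level there whose interval overlapped that of the class. A second cluster named delta-like held 39 cells, 12 and 27 by library. Its cells had SST at 222307 CPM, CRH at 582 CPM and LEPR at 269 CPM, but HHEX rested on 1 UMI (6.26 CPM, 0.159 to 34.9) and SIX2 on none. By library CRH stood there at 152 CPM (61.0 to 313) and 757 CPM (606 to 935). These cells had a median of 3851 UMIs and 22.4% mitochondrial UMIs, against 12959 UMIs and 6.12% in the main cluster, and the part of depth and mitochondrial RNA in these values was not tested. An unnamed cluster of 255 cells led by LYZ, CTGF and CCK, of which 203 came from the library labelled no DOX, held NKX6-3 at 53.3 CPM (44.4 to 63.4) and ST3GAL1 at 53.7 CPM (44.8 to 63.9), with HHEX at 5.03 CPM and SST at 2798 CPM. By library, NKX6-3 stood there at 48.5 and 74.2 CPM and ST3GAL1 at 47.5 and 81.0 CPM, and detection of both in the same cell was not counted.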

How the data were processed

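The authors deposited counts, that is whole UMIs per gene and barcode, for both single-cell libraries. The file header names Cell Ranger 3.0.2, the submitters' notes list Cell Ranger 3.0, kallisto, bustools 0.40.0, Scanpy and Seurat with GRCh38, and the methods describe kallisto and bustools, so the tool that made the counts could not be settled. Barcodes with under 1000 UMIs and doublets (Scrublet in scanpy 1.11.5, 26.6% and 26.5% of barcodes) were left out. Cells were scaled to 10000 UMIs and log transformed, reduced to 50 principal components over 2293 variable genes, joined to 3 neighbours in each library and clustered (leidenalg 0.10.2, resolution 0.2). A cluster was named where the mean log2 ratio of a marker list was at least 1, with at least 3 markers raised and 1 or more among its 10 leading genes. The markers came from the list that the study made from these libraries. The 7 genes, the marker lists and the gene lists were chosen with earlier results of these data known.

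Levels are CPM of UMIs summed per class and library. With 1 library per condition no test was possible. Intervals (95%, exact Poisson, conditional binomial for ratios, Clopper-Pearson for shares; scipy 1.17.1) cover counting error only. Ratios across genes used genes with at least 5 CPM on either side. Genes named are the 7 members, listed genes, neighbours within 250 kb and the 5 genes most like each member. Alternatives covered doublets, filters, clustering, thinning (5000 against 2500 UMIs) and scaling. Leaving out INS and SST from totals and leaving out barcodes of both libraries were added after seeing the data. The labels' extraction text describes islet RNA and was not used. Some genes of these lists are not reported here.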

Additional observations from a re-analysis of the deposited data

Results flagged for a closer look

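For 4 of the genes the log2 ratio between the libraries (DOX over no DOX, as labelled) lay on opposite sides of 0 in different named classes, with intervals for counting error that left out 0, as it did for 11.5% of the 17412 genes with at least 20 UMIs in 2 or more named classes. That share depends on depth, for which those genes were not matched. HHEX was below 0 in every named class and above it in the unnamed cluster alone, at 1.13, and the share of all genes below 0 in every named class was not counted. With 1 library per condition the differences between classes were not tested. NKX6-3 was at 0.13 in delta-like cells, -0.79 in beta cell progenitor-like cells and -1.11 in alpha-like cells. Per UMI other than INS and SST the interval of NKX6-3 in delta-like cells held 0 (0.08, -0.01 to 0.16), so its higher value there did not hold on that scale. CRH was at 0.15 in delta-like cells, -0.56 in beta-like cells, -0.13 in alpha-like cells and -0.33 in proliferating progenitor-like cells. At a finer clustering the intervals of the libraries overlapped for CRH in the beta-like cluster (3.80 and 3.66 CPM) and in the proliferating progenitor-like cluster (61.6 and 61.3 CPM), as for LEPR in the beta-like and both alpha-like clusters, and for FAM20A in the beta-like and proliferating progenitor-like clusters. They were apart in an unnamed cluster of 5603 cells, whose highest-scoring marker list was that of beta-like cells. There CRH (8.38 and 4.15 CPM), LEPR (10.3 and 5.04 CPM) and FAM20A (4.52 and 2.53 CPM) were lower in the library labelled DOX. LEPR was at 0.0836 in alpha-like cells, -0.63 in beta-like cells and -0.43 in beta cell progenitor-like cells. FAM20A was at 0.17 in delta-like cells, -0.51 in beta-like cells and -0.72 in proliferating progenitor-like cells, and at 3.04 in duct-like cells, where it rests on 20 UMIs against 2 and where SST was at 1.39.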

How the results depend on the processing

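All 7 genes were highest in delta-like cells under each clustering and filter alternative run. With doublets kept, the median log2 ratio of delta-like over other endocrine cells was 3.83, the delta-like share of cells 9.59% (no DOX) and 6.71% (DOX), and the share of delta-like cells with 3 or more genes 57.3% and 57.6%. Leaving out cells over 20% mitochondrial UMIs gave delta-like shares of 12.9% and 8.88%. The median log2 ratio was 4.498 when scaled to the median gene, 4.11 with every cell weighted equally and 4.63 per UMI other than INS and SST. With every named class weighted equally, the median library ratio over all cells was -0.0335, and CRH (0.078), LEPR (0.0135) and FAM20A (0.17) changed sign. The share of delta-like cells with 3 or more genes was 32.2% and 32.0% at 2500 UMIs and 81.8% and 80.7% without thinning. Apart from these scaling and thinning alternatives, the cause of the shifts was not tested. Leaving out a replicate was not possible with 1 library per condition. No paired analysis was possible because each condition has 1 library. Depth limits the values that rest on few UMIs, such as those of SIX2 (1764 UMIs in all) and those of the 331 duct-like cells.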
